A study of Mus musculus with 15 samples.

Results

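The genes described here encode ligands and receptors through which immune cells raise or restrain each other's activity: Cd80, Cd86, Vsir, Havcr2, Lag3, Pvrig and Lilrb4a. They were chosen by symbol, as 7 of the costimulatory ligands and checkpoint-type receptors with a line among the 13834 genes of the deposited table. Other such genes, Pdcd1, Cd274, Tigit and Icosl among them, also have a line there. The 7 chosen genes all passed the filter on low values that left 13175 genes for testing. The choice was made with results of these same data in view. Because of that, 3 differences that were already known, Pvrig between AF-high and AF-low, Cd80 between AF-high and young, and Lilrb4a between AF-low and young, are given below as values with no test. RNA was sequenced from microglia, the resident macrophages of the brain, sorted by flow cytometry. PLX5622 stands for 4 libraries from mice aged 18 months that were given PLX5622, an inhibitor of the colony-stimulating factor 1 receptor that depletes microglia. AF-high stands for 5 libraries of highly autofluorescent cells, and AF-low for 3 libraries of weakly autofluorescent cells, both from untreated mice aged 18 months. Young stands for 3 libraries from untreated mice aged 3 months. No strain or genotype is named in the labels, nor is the dose or schedule of PLX5622, the autofluorescence gate of the PLX5622 and young cells, or whether the cells in the PLX5622 libraries had survived the drug or returned after it. The libraries of a group are called biological replicates, and whether each came from 1 mouse or from a pool is not given. A p-value here weighs a difference of group means against the spread among libraries, and the number of mice behind it is unknown.

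T cells need a second signal beside antigen to become fully active. CD80 and CD86, members of the B7 family on antigen-presenting cells, give that signal through CD28 and withdraw it through CTLA-4. VISTA, the product of Vsir, is a B7-family protein of myeloid cells and T cells that restrains T cell activation. TIM-3 (Havcr2), LAG-3 (Lag3) and PVRIG (Pvrig) are best known as inhibitory receptors of T cells and natural killer cells. TIM-3 binds galectin-9 among other ligands, LAG-3 binds MHC class II and PVRIG binds nectin-2. LILRB4, of which Lilrb4a is a mouse counterpart, is an inhibitory receptor of myeloid cells. Its cytoplasmic tail carries ITIM motifs, short tyrosine sequences that recruit phosphatases such as SHP-1. Resting microglia are known to carry TIM-3, VISTA and CD86.

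All 7 genes are annotated as protein coding in GENCODE M21 on the mouse build GRCm38. Cd80 (ENSMUSG00000075122.5) lies on chromosome 16 at 38455561 to 38496335 on the plus strand, and Cd86 (ENSMUSG00000022901.13) lies on the same chromosome at 36603869 to 36666081 on the minus strand. Vsir (ENSMUSG00000020101.14) lies on chromosome 10 at 60346851 to 60372684 on the plus strand, inside the span of Cdh23 on the opposite strand, with 0 exon bases in common. Havcr2 (ENSMUSG00000020399.14) lies on chromosome 11 at 46454935 to 46481255 on the plus strand. Lag3 (ENSMUSG00000030124.2) lies on chromosome 6 at 124904361 to 124911705 on the minus strand. Pvrig (ENSMUSG00000109713.1) lies on chromosome 5 at 138341961 to 138343557 on the plus strand. Lilrb4a (ENSMUSG00000112148.1) lies on chromosome 10 at 51490956 to 51496611 on the plus strand. Its reads are the hardest to place. Of its exon bases 35.3% are shared with the gene model Gm49339 on the same strand, and 2.51% with the antisense model Gm40645. Of the distinct 31-base words in its transcripts, 56.1% also occur in transcripts of other genes, 39.1% in those of Lilr4b alone. For the other 6 genes that share is at most 1.65%, so their values are separable from those of other genes by sequence.

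RefSeq promoter windows on GRCm38.p6, from 250 bases before the annotated start to 50 after it, were matched for 4 of the 7 genes (Cd80, Vsir, Havcr2 and Pvrig). The windows of Cd80 and Havcr2 are printed because these were the genes whose PLX5622 libraries all lay below the AF-high libraries. The Cd80 window is chr16:38458683-38458982 and the Havcr2 window is chr11:46454681-46454980, both on the plus strand. The RefSeq start of Cd80 lies inside the GENCODE gene rather than at its first base. Capitals mark matches to the motifs searched, which were TGANTCA for AP-1, GAGGAAG for PU.1 and the NF-kappaB consensus, each on both strands.
Cd80: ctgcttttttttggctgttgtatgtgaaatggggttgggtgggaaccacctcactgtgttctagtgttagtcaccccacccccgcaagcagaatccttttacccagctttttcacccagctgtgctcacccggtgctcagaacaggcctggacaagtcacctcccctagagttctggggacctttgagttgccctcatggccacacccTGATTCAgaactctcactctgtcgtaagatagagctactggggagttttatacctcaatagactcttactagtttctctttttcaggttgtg
Havcr2: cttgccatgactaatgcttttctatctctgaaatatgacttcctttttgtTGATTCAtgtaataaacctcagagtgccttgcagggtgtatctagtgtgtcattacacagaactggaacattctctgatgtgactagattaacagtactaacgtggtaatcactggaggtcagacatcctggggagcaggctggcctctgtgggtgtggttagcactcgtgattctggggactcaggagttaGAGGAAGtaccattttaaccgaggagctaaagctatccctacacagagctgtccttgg
The Cd80 window held 1 AP-1 match, beginning at position -42 from the start, and neither of the other motifs. In the Havcr2 window there was 1 AP-1 match at -200 and 1 PU.1 match at -8. The windows of Vsir and Pvrig held no match to any of them. Of 32851 promoters of that length, 7.81% held the AP-1 letters, 13.6% those of PU.1 and 4.51% the NF-kappaB consensus. A match describes the letters only.

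Expression was given as TPM, the transcript abundance scaled to gene length and to a common total per library, so genes can be ranked against each other but the number of reads behind a value is unknown. The column totals ran from 956489 to 963145 TPM. AF-high 2 and AF-high 3 had 5.38% and 7.66% of TPM in mitochondrial transcripts, against 1.57% to 2.7% in the other libraries. Choroid plexus markers, 8 of 11 in the table, summed to 143.4 to 207.9 TPM in PLX5622, 35.45 to 377.1 in AF-high libraries and 61.75 to 324.7 in AF-low libraries, while young 1, young 2 and young 3 held 8898, 5883 and 220.3 TPM. Microglial markers were high in each library. The 14 listed, all in the table, summed to 11360 to 12270 TPM in PLX5622, 11420 to 16030 in AF-high libraries, 9186 to 12690 in AF-low libraries and 13070 to 15080 in young. T cell markers summed to 30.59 to 49.16 TPM in PLX5622, 26.55 to 82.07 in AF-high libraries, 31.38 to 43.34 in AF-low libraries and 30.84 to 39.29 in young, over the 9 of 22 with a line in the table. Natural killer cell markers, 5 of 14, summed to 21.11 to 33.45, 15.54 to 85.61, 23.13 to 53.74 and 17.69 to 30.75 TPM in PLX5622, AF-high, AF-low and young. The 9 T cell markers with a line are Cd3d, Cd247, Cd8a, Cd8b1, Skap1, Bcl11b, Il7r, Cd6 and Ms4a4b. Cd3d averaged 5.31, 12.03, 4.417 and 6.168 TPM in PLX5622, AF-high, AF-low and young, with 39.66 TPM in its highest AF-high library. Other T cell markers, Cd3e, Cd3g, Trac, Trbc1, Trbc2, Cd4, Lck and Zap70 among them, have no line in the table and were not analysed here. The part of lymphocytes, choroid plexus cells or RNA quality in the results below was not tested beyond the values given.

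In each of the 4 groups Cd86 had the highest mean of the 7 genes and Pvrig the lowest. In PLX5622 libraries Cd86 averaged 312.1 TPM, Havcr2 256.3, Lilrb4a 183.2, Vsir 181, Lag3 69.12, Cd80 43.48 and Pvrig 5.692. In this order only Lilrb4a and Vsir had libraries that overlapped as neighbours. AF-high libraries kept Cd86 (322.6) and Havcr2 (310.6) at the top, with overlapping ranges. Below them came Lilrb4a (179.2) and Vsir (168.3), which overlapped, then Lag3 (95.51) and Cd80 (92.06), which also overlapped, and Pvrig (6.806). The AF-low means followed the order Cd86 (353.8), Havcr2 (280.8), Lilrb4a (255.6), Vsir (158.4), Cd80 (102.9), Lag3 (76.91) and Pvrig (1.869 TPM), and each neighbour down to Lag3 overlapped the next. In young libraries Cd86 (292) and Havcr2 (263.9) overlapped, Vsir (202.2) stood alone, Lilrb4a (103.2) and Lag3 (79.48) overlapped, and Cd80 (49.3) and Pvrig (4.035) followed. Against all genes of the table, the group means of Cd86 fell between the 96.2 and 96.7 percentiles and those of Pvrig between the 14.4 and 34 percentiles. Cd80 ranked at the 76.5 percentile in PLX5622, 87.1 in AF-high, 87.9 in AF-low and 77.4 in young.

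**Figure D1:**
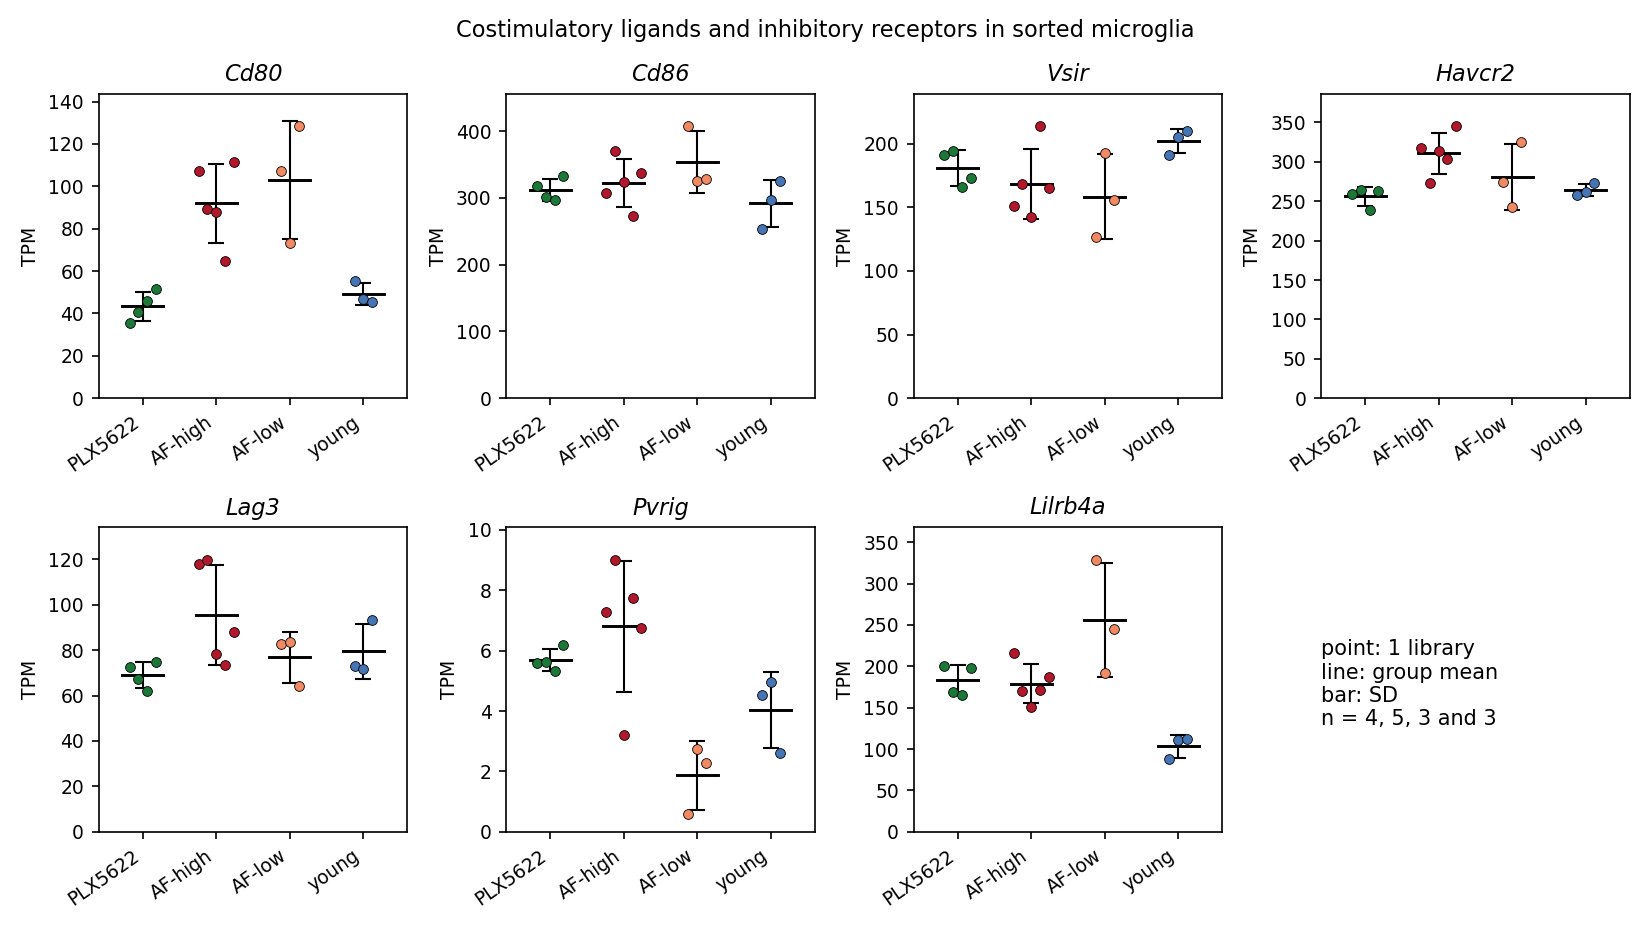
TPM (vertical axis, from 0) of the 7 genes in each library of PLX5622 (n = 4), AF-high (n = 5), AF-low (n = 3) and young (n = 3); points are libraries, the line is the mean and the bar the SD. Cd80 libraries of PLX5622 lie at 35.61 to 51.48 TPM, below the AF-high libraries at 64.55 to 111.4 and the AF-low libraries at 73.08 to 128.4, while Cd86 overlaps across those groups.

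Cd80 was the gene of the set that passed the test between treated and untreated old microglia, and it was lower in the treated ones. PLX5622 libraries had 35.61, 40.85, 45.99 and 51.48 TPM. AF-high libraries had 107.2, 89.31, 87.82, 64.55 and 111.4 TPM, and AF-low libraries 107.1, 73.08 and 128.4 TPM. Young libraries had 55.29, 47.02 and 45.59 TPM. Every PLX5622 library thus lay below every untreated old library, and within or below the young range. The mean in PLX5622 was 43.48 ± 6.811 TPM (SD, n = 4), against 92.06 ± 18.62 in AF-high (n = 5), a ratio of 0.472. On the log2(TPM + 1) scale, which understates the change of genes of low level, Cd80 fell by 1.05 ± 0.19 (SE) in PLX5622 relative to AF-high, with an adjusted p of 0.0278. It was the 1 of the 7 genes called lower there, where 0.471% of all tested genes were called lower. Relative to AF-low, with a mean of 102.9 ± 27.91 TPM (n = 3), Cd80 fell by 1.20 ± 0.21 (adjusted p = 0.0423), again the 1 gene of 7, where 0.144% of all genes were called lower. The PLX5622 libraries are the same in both comparisons, and the AF-high values are the ones in which the difference from young was known beforehand.

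Relative to young, with 49.3 ± 5.237 TPM, the PLX5622 difference of Cd80 was -0.19 ± 0.21, with a 95% interval of -0.64 to 0.27. The untreated old groups lay above young without overlap. The AF-high mean was 1.87 times the young mean (log2 difference 0.87 ± 0.20, no test given). The AF-low mean was 2.09 times it (1.01 ± 0.23, adjusted p = 0.118). AF-high and AF-low overlapped, with a difference of -0.15 ± 0.20 (adjusted p = 0.876). The fall relative to AF-high kept its direction but not its call without AF-high 5, PLX5622 1, PLX5622 2, PLX5622 3 or PLX5622 4 (adjusted p = 0.0574, 0.126, 0.0818, 0.105 and 0.0539), or with young 1 and 2 left aside (0.0793). The fall relative to AF-low lost its call in 10 of the 15 fits that left out 1 library (adjusted p up to 0.185), those without AF-high 5, AF-low 1, AF-low 3 or any young or PLX5622 library, under quantile normalization (0.106), with young 1 and 2 left aside (0.122), and without the libraries AF-high 2, AF-high 3 and AF-low 1 together (0.0775). With only the compared groups in the fit neither was called (0.059 and 0.0789).

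Border-associated macrophages are the other resident macrophages of the brain, at its vessels and coverings. Their summed markers had the same order of groups as the means of Cd80. The sum, over 13 of 15 in the table, was 191.6 to 239.9 TPM in PLX5622, 330.7 to 469.8 in AF-high libraries, 475.7 to 617.7 in AF-low libraries and 254.9 to 320.3 in young. These ranges did not overlap, while Cd80 overlapped between AF-high and AF-low and between PLX5622 and young. Of the 13 markers 11 lay below 0 between PLX5622 and AF-high and 13 between PLX5622 and AF-low. Mrc1, the mannose receptor gene of these macrophages, made up only a small part of each sum. It fell to 8.752 ± 2.328 TPM in PLX5622, against 23.27 ± 1.605 in AF-high (adjusted p = 0.00603) and 32.2 ± 3.602 in AF-low (adjusted p = 0.00071). Both calls were kept in 15 of 15 fits without 1 library. With a replicate block the call relative to AF-high was lost (adjusted p = 0.0751). That relative to AF-low was lost with only the compared groups fitted (0.0789). The part of these macrophages in the Cd80 result was not tested. In bulk RNA, fewer cells of a type and less RNA per cell cannot be told apart.

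Cd86, the other B7 ligand of CD28 and CTLA-4, did not pass the test in any of the 6 comparisons. It had 317.3, 301.8, 296.5 and 332.7 TPM in PLX5622, 307.8, 371, 324.3, 272.6 and 337.2 in AF-high, 407.5, 325.1 and 328.8 in AF-low, and 254.2, 296.8 and 324.9 in young. PLX5622 and AF-high libraries overlapped almost fully. That difference was -0.04 ± 0.12, with an interval of -0.29 to 0.21 (adjusted p = 0.905), and it changed sign in several alternatives, quantile normalization among them. AF-low lay just above young without overlap, at 353.8 ± 46.59 against 292 ± 35.58 TPM (0.28 ± 0.14, adjusted p = 0.468). Within a library, Cd86 was 8.909, 7.387, 6.447 and 6.463 times Cd80 in PLX5622. In AF-high the same ratio averaged 3.594 ± 0.6252 and in AF-low 3.605 ± 0.96, and neither group reached the lowest PLX5622 value. In young it averaged 6.012 ± 1.291 and overlapped PLX5622. These ratios are given as a description, without a test.

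Vsir, the gene of VISTA, was highest on average in young microglia, but passed the test in no comparison. Its values were 191.5, 194, 165.8 and 172.7 TPM in PLX5622, 151.2, 168.5, 142.7, 213.8 and 165.2 in AF-high, 126.4, 192.8 and 155.8 in AF-low, and 191.3, 205.2 and 210.1 in young. AF-high and AF-low libraries spread widely, and both groups overlapped young, AF-high with 1 library above all young ones and AF-low with 1 library inside the young range. The differences from young were -0.16 ± 0.16 in PLX5622, -0.28 ± 0.15 in AF-high (adjusted p = 0.526) and -0.37 ± 0.17 in AF-low (adjusted p = 0.404). PLX5622 differed from AF-high by 0.12 ± 0.14 and from AF-low by 0.21 ± 0.16 (adjusted p = 0.743 and 0.566).

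Havcr2, the gene of TIM-3, had the highest mean TPM of the receptors in each group. It had 259.7, 263.9, 238.6 and 262.9 TPM in PLX5622 and 318, 273.4, 313.1, 303.2 and 345.2 in AF-high. AF-low libraries had 274.7, 242.2 and 325.5 TPM, and young libraries 258, 261.2 and 272.5. The AF-high libraries lay above all PLX5622 and all young libraries, AF-high 2 only just above the highest young one, and the AF-low libraries overlapped every other group. The difference of PLX5622 from AF-high was -0.27 ± 0.11 (adjusted p = 0.229), and that of AF-high from young was 0.23 ± 0.12 (adjusted p = 0.489), so neither passed the test. PLX5622 and young differed by -0.04 ± 0.12, which changed sign under quantile normalization.

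Lag3 encodes a receptor that binds MHC class II. It had 72.67, 67.18, 61.91 and 74.72 TPM in PLX5622, 118, 119.9, 78.33, 73.46 and 87.87 in AF-high, 82.87, 83.82 and 64.05 in AF-low, and 73.17, 71.84 and 93.43 in young. AF-high 1 and AF-high 2 stood above all other libraries, and the remaining values overlapped across groups. Those were also the libraries of highest summed natural killer markers (85.61 TPM, AF-high 1) and of highest summed T cell markers (82.07 TPM, AF-high 2). On the other list of each pair they did not stand high, with a natural killer sum of 15.54 TPM in AF-high 2, the lowest of all libraries, and a T cell sum of 37.45 TPM in AF-high 1. Most of the natural killer sum in AF-high 1 was the chemokine gene Ccl5, which had its highest AF-high value, 75.78 TPM, there. Whether the natural killer and T cell markers had a part in the Lag3 values was not tested. The difference of PLX5622 from AF-high was -0.43 ± 0.16 (adjusted p = 0.215) and that of AF-high from AF-low was 0.29 ± 0.18 (adjusted p = 0.691).

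Pvrig, the receptor of nectin-2, was measured near the lower end of the table. Its values were 5.608, 5.64, 5.339 and 6.183 TPM in PLX5622, 7.29, 9.017, 3.205, 7.753 and 6.764 in AF-high, 0.5757, 2.744 and 2.288 in AF-low, and 4.535, 4.961 and 2.61 in young. All AF-low libraries were below all PLX5622 and all AF-high libraries, and overlapped young through the library at 2.61 TPM. Values this low carry an unknown sampling error. The AF-high mean was 3.64 times the AF-low mean (log2 difference 1.48 ± 0.31, no test given). PLX5622, at 5.692 ± 0.3535 TPM, had 3.05 times the AF-low mean of 1.869 ± 1.143 (1.32 ± 0.33, adjusted p = 0.118), and this difference was called in 1 of 24 alternatives, without AF-low 2 (adjusted p = 0.0405). The AF-low libraries are the ones in which Pvrig was known to be low when the genes were chosen. PLX5622 libraries also lay above all young libraries, with 0.44 ± 0.33 (adjusted p = 0.979). Of all tested genes 3.28% lay higher without overlap in PLX5622 than in young, and 5.31% higher than in AF-low.

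Lilrb4a, the ITIM-bearing receptor, lay above the young range in each old library, with PLX5622 or without it. PLX5622 libraries had 200.3, 169.1, 165.5 and 198 TPM. AF-high libraries had 215.8, 170.7, 151.4, 171 and 187.3 TPM, AF-low libraries 329, 192.2 and 245.7, and young libraries 87.48, 110.5 and 111.7. The old and young libraries did not overlap, and PLX5622 lay within the AF-high range. The PLX5622 mean was 183.2 ± 18.49 TPM, 1.78 times the young mean of 103.2 ± 13.65 (0.83 ± 0.18, interval 0.45 to 1.20, adjusted p = 0.116). The AF-high mean was 1.74 times the young mean (0.79 ± 0.17, adjusted p = 0.121) and the AF-low mean 2.48 times it (1.27 ± 0.19, no test given). The young libraries are the ones in which Lilrb4a was known to be low when the genes were chosen. The PLX5622 difference from young was called in 4 of 25 alternatives, and in 0 of the 15 fits without 1 library (adjusted p up to 1 over all alternatives). The 4 were quantile normalization (adjusted p = 0.0273), only those groups in the fit (0.0284), array weights (0.00141), and a fit without the libraries AF-high 2, AF-high 3 and AF-low 1 together (0.0347). PLX5622 and AF-high differed by 0.04 ± 0.15, with an interval of -0.29 to 0.36 (adjusted p = 0.939). AF-low averaged 255.6 ± 68.93 TPM. PLX5622 differed from it by -0.45 ± 0.18 (adjusted p = 0.265) and AF-high by -0.49 ± 0.17 (adjusted p = 0.479).

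How much of the Lilrb4a signal is its own depends on its neighbour Lilr4b, a near-identical gene. The coding sequences of Lilrb4a-201 (1005 bases) and Lilr4b-201 (909 bases) were identical at 871 of 907 aligned bases, or 96%. The 60-base window in which they differ most, at aligned positions 209 to 268, is shown to make the few distinguishing bases visible, with the 9 differences in capitals, from GENCODE M21 transcripts of chromosome 10.
Lilrb4a: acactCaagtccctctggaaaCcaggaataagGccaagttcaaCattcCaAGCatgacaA
Lilr4b: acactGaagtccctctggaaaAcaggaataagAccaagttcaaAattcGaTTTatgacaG
Lilr4b averaged 82.02 ± 8.568 TPM in PLX5622, 84.26 ± 22.17 in AF-high, 135.8 ± 46.78 in AF-low and 54.47 ± 12.86 in young, the same order as Lilrb4a apart from the close pair of PLX5622 and AF-high. Lilrb4a made up 60.6% to 72.5% of the pair's TPM in every library. Gm49339 averaged 9.99 ± 5.546, 8.958 ± 4.333, 9.245 ± 4.798 and 6.665 ± 0.7362 TPM in PLX5622, AF-high, AF-low and young. With the lines of all 3 genes summed, PLX5622 differed from young by 0.75 ± 0.19 (adjusted p = 0.273) and AF-high by 0.72 ± 0.18 (adjusted p = 0.168). The sources used here do not give how reads were divided between the copies, and the separate values are uncertain for that reason.

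**Figure D2:**
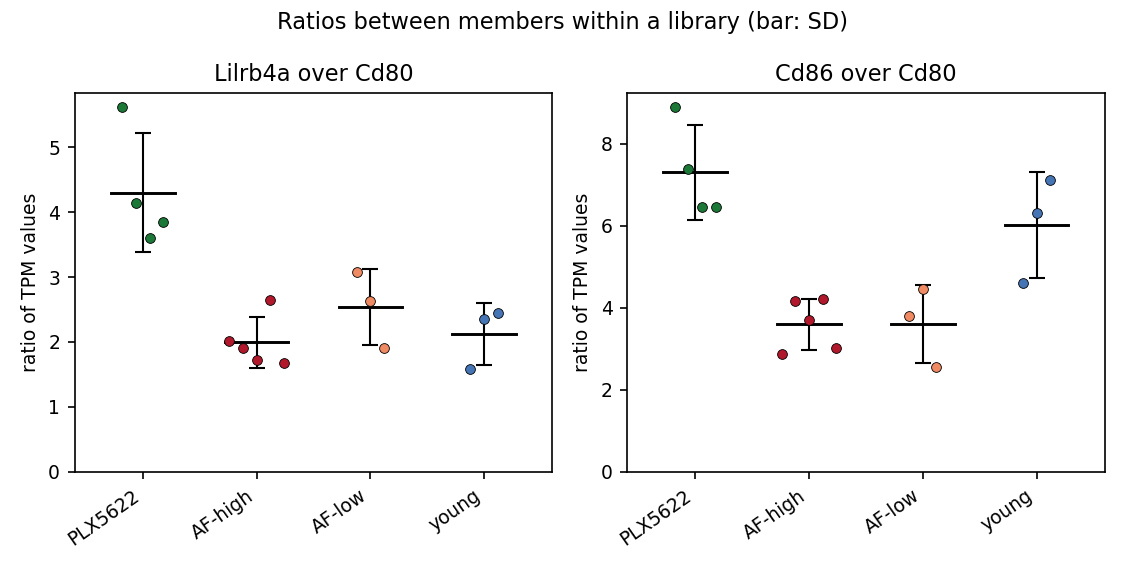
Ratio of TPM values within each library (vertical axis, from 0) for Lilrb4a over Cd80 and Cd86 over Cd80; points are libraries, lines are means and bars SD, with n = 4, 5, 3 and 3. All PLX5622 libraries have a Lilrb4a over Cd80 ratio of 3.598 or more, and the highest ratio elsewhere is 3.072.

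Set against each other within a library, Lilrb4a and Cd80 separated PLX5622 from the 3 other groups. Lilrb4a was 5.626, 4.139, 3.598 and 3.846 times Cd80 in PLX5622. The ratio was 1.996 ± 0.3895 in AF-high, 2.538 ± 0.5849 in AF-low and 2.127 ± 0.4749 in young, and no library of these groups was above 3.072. Havcr2 over Vsir, both inhibitory, was 1.419 ± 0.07844 in PLX5622, 1.885 ± 0.3433 in AF-high, 1.839 ± 0.5069 in AF-low and 1.306 ± 0.03885 in young. It varied little among PLX5622 and young libraries and widely among untreated old ones. The ratios were chosen with the members' values known and have no test.

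**Figure D3:**
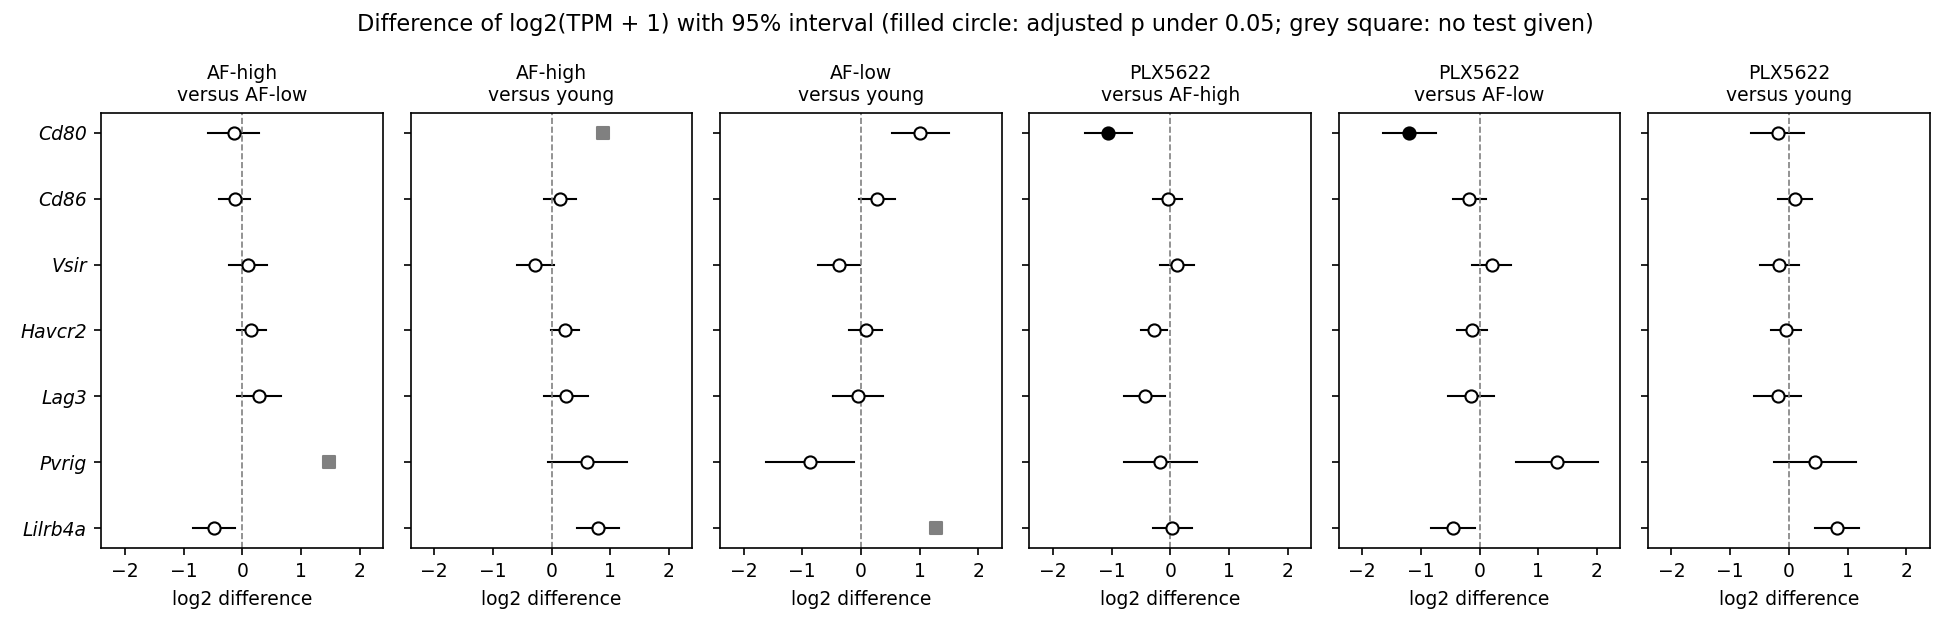
Difference of log2(TPM + 1) (horizontal axis) of the 7 genes in the 6 comparisons, first group minus second, with 95% intervals; filled circles have an adjusted p under 0.05, and grey squares are the 3 differences given without a test. The filled circles are Cd80 in PLX5622 versus AF-high (-1.05) and versus AF-low (-1.20).

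Across the comparisons the 7 genes did not move as a block. Between PLX5622 and AF-high, 2 lay above 0 and 5 below, with a median of -0.17 beside -0.02 over all genes, and Cd80 and Havcr2 were the 2 of 7 without overlap, both lower, where 4.18% of all genes were lower without overlap. Between PLX5622 and AF-low the median was -0.15 beside -0.05, with 1 gene of 7 (Pvrig) higher without overlap and 1 (Cd80) lower, where the shares of all genes were 5.31% and 10.9%. Pvrig was already known to be low in the AF-low libraries. Between PLX5622 and young the median was -0.04 beside -0.11. Here limma called 0 of 7 (1 had an unadjusted p under 0.05), and 2 (Pvrig and Lilrb4a) were higher without overlap, against 3.28% of all genes. Quantile normalization moved the median of all genes in that comparison to -0.01, so differences from young in PLX5622 are best read relative to that shift. The same limma test called 0.0911% of all genes there, and 689 genes had an unadjusted p under 0.05.

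Between AF-high and AF-low no gene of the table was called (0% of 13175, while 1082 had an unadjusted p under 0.05), and the 7 genes had a median of 0.09 beside -0.04 over all genes. Only Pvrig did not overlap, where 2.76% of all genes did not. Between AF-high and young 0% of genes were called and 1446 had an unadjusted p under 0.05. Cd80, Havcr2 and Lilrb4a were higher without overlap, 3 of 7 where 2.63% of all genes were, and the median was 0.24 beside -0.08. Between AF-low and young, 0.0455% of genes were called, all higher, and 19.3% did not overlap. Cd80, Cd86 and Lilrb4a were higher without overlap, where 8.25% of all genes were, and the median was 0.08 beside -0.04. AF-high and AF-low were set against the same young libraries. Cd80 and Lilrb4a in the untreated old groups, and Pvrig between AF-high and AF-low, include the differences that were known when the genes were chosen. These counts are therefore a description.

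The partners of these genes were read from lists of related genes. In the B7 and CD28 family, 10 of 15 listed genes were measured and Cd80 was the 1 called, lower in PLX5622 than in AF-high and AF-low, where 0.471% and 0.144% of all genes were called lower. Between PLX5622 and AF-high 3 of the 10 had an unadjusted p under 0.05, where 15.3% of all genes did. Icosl, the ligand of ICOS, was at 44.32 ± 3.459 TPM in PLX5622 and 50.67 ± 9.297 in AF-high (adjusted p = 0.627). The median of the list was -0.09 between PLX5622 and AF-high. Havcr2 was the 1 measured gene of the 4 of the TIM family. Of the nectins and their receptors 7 of 11 were measured, and Pvr, the poliovirus receptor that binds TIGIT and CD226, was the 1 called. It fell to 39.75 ± 4.984 TPM in PLX5622, against 77.87 ± 11.55 in AF-high (-0.95 ± 0.15, adjusted p = 0.0231) and 98.25 ± 19.69 in AF-low (-1.27 ± 0.17, adjusted p = 0.00907), and was at 50.57 ± 6.645 TPM in young. Pvr thus had the same order of group means as Cd80. Without PLX5622 1, 2 or 3 its fall relative to AF-high was not called (adjusted p up to 0.105), and without AF-low 1 or PLX5622 1 that relative to AF-low was not (0.0559 and 0.0538). Its partner Tigit had 45.86 ± 6.81 TPM in PLX5622 and 48.46 ± 19.13 in AF-high, with no call. Nectin4 and Cadm1, adhesion molecules, were not called either.

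The list of TIM-3, LAG-3, VISTA and LILRB4 ligands also holds Cd74, which is not itself a ligand gene. Of its 15 genes 13 were measured. Between PLX5622 and AF-high 1 rose, where 0.159% of all genes rose. Between PLX5622 and AF-low 1 fell, which was Cd74, where 0.144% of all genes were called lower. Lgals3, the galectin-3 gene, rose to 8.838 ± 2.762 TPM in PLX5622, against 2.092 ± 1.357 in AF-high (1.77 ± 0.34, adjusted p = 0.0362). That call was lost in 8 of 15 fits without 1 library (adjusted p up to 0.139), those without AF-high 2 or any young or PLX5622 library. Cd74, which encodes the invariant chain that guides MHC class II molecules, fell to 52.98 ± 7.426 TPM in PLX5622, against 135.9 ± 13.9 in AF-low (-1.35 ± 0.14, adjusted p = 0.00071), and was called in 15 of 15 fits without 1 library. The class II chain genes of the list were also lower on average in PLX5622 than in AF-low, but were not called. H2-Aa averaged 15.94 against 85.81 TPM (adjusted p = 0.251) and H2-Ab1 7.756 against 26.45 TPM (adjusted p = 0.268). Lgals9, the galectin-9 gene, was at 123.1 ± 9.713 TPM in PLX5622 and 208.9 ± 58.56 in AF-high (-0.71 ± 0.19, adjusted p = 0.0888). Hmgb1, a TIM-3 ligand gene, Selplg, whose product binds VISTA, and Apoe, whose product binds human LILRB4, were not called.

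Of the TNF-family costimulators 5 of 16 were measured, and 1 was called, higher in PLX5622 than in AF-high, where 0.159% of all genes were. Tnfsf8, the CD30 ligand gene, rose to 3.156 ± 0.776 TPM in PLX5622, against 0.7932 ± 0.707 in AF-high (1.27 ± 0.26, adjusted p = 0.0426), both low levels, and kept that call in 4 of 15 fits without 1 library (adjusted p up to 0.158). With a pseudocount of 0.1 the difference was 2.15 and not called (adjusted p = 0.0864), and that of Lgals3 was 2.35 and not called either (0.0605). Cd40, Tnfrsf4, Cd27 and Tnfsf13b were not called.

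The list of ITIM effectors and adaptors, through which LILRB4, its relatives and their activating counterparts signal, was measured in full (12 of 12). It also holds Bag6, which is neither, at -0.47 between PLX5622 and AF-high (adjusted p = 0.215). Between PLX5622 and AF-high 12 of 12 lay below 0, with a median of -0.33 beside -0.02 over all genes, and 2 were called, both lower, where 0.471% of all genes were. Fcer1g, the signalling chain of Fc receptors, fell to 1057 ± 118.7 TPM in PLX5622, against 1717 ± 199.5 in AF-high (-0.70 ± 0.11, adjusted p = 0.0231). Ptpn6, the gene of the phosphatase SHP-1, fell to 186.9 ± 27.13 TPM, against 442.9 ± 157.5 in AF-high (-1.17 ± 0.24, adjusted p = 0.0426). The Fcer1g call was lost without PLX5622 1, 2 or 3 (adjusted p up to 0.105), and the Ptpn6 call was kept in 4 of 15 such fits (adjusted p up to 0.178). Between PLX5622 and AF-low the adaptor Grb2 was the 1 called, lower, where 0.144% of all genes were. Grb2 fell to 61.36 ± 7.125 TPM, against 114.8 ± 17.16 (-0.89 ± 0.16, adjusted p = 0.0434), kept in 4 of 15 fits without 1 library (adjusted p up to 0.218). Inpp5d, the gene of the phosphatase SHIP-1, and the adaptor Tyrobp were not called. With only the compared groups in the fit, the calls of Pvr, Lgals3, Cd74, Tnfsf8, Fcer1g, Ptpn6 and Grb2 were all lost (adjusted p = 0.059 to 0.0944). With young 1 and 2 left aside those of Pvr relative to AF-high, Lgals3, Tnfsf8, Fcer1g, Ptpn6 and Grb2 were lost (0.0622 to 0.122).

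**Figure D4:**
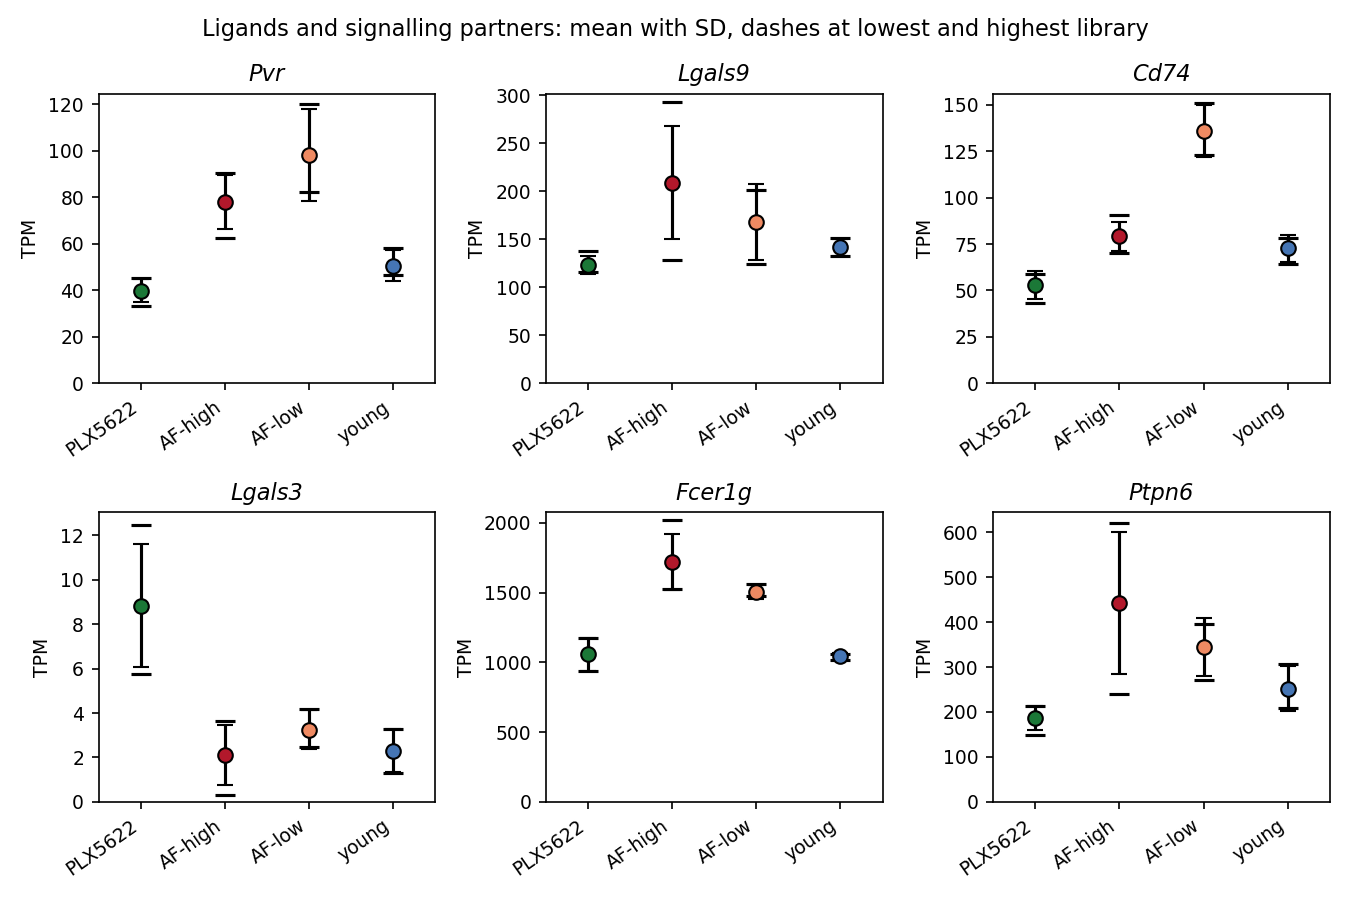
Mean TPM (vertical axis, from 0) of 6 partner genes in PLX5622 (n = 4), AF-high (n = 5), AF-low (n = 3) and young (n = 3), with SD bars and wide dashes at the lowest and highest library. Pvr averages 39.75 TPM in PLX5622 and 77.87 in AF-high, and Fcer1g 1057 and 1717, while Lgals3 is higher in PLX5622 (8.838 against 2.092).

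The paired and ITIM-bearing receptors of myeloid cells were the relatives of Lilrb4a, with 21 of 24 measured. In the 3 comparisons of PLX5622 the 1 call among them was Ly9, a SLAM-family receptor. It was called relative to young, where 0.0911% of all genes were, and rose to 20.94 ± 0.8404 TPM in PLX5622, against 9.075 ± 1.185 in young (1.13 ± 0.18, adjusted p = 0.0195). It was not called without young 1 or 2 or any PLX5622 library (adjusted p up to 0.215), nor with young 1 and 2 left aside. Lair1, Sirpa, Cd33 and Siglech, the most abundant of the list, were called nowhere. Of the list of other SLAM-family genes, which does not hold Ly9, 9 of 11 were measured and 0 were called by limma in the 6 comparisons. In each comparison 2 to 4 of them had an unadjusted p under 0.05, against 5.23% to 15.3% of all genes. Between PLX5622 and AF-high 8 of those 9 lay above 0, with a median of 0.27 beside -0.02. Cd84 was at 195.1 ± 2.408 TPM in PLX5622 and 163.5 ± 28.69 in AF-high (adjusted p = 0.386), and Slamf1, the 1 below 0, at 25.21 ± 1.805 and 36.71 ± 4.951 in those groups (adjusted p = 0.0657). Cd48 and Slamf9 lay above 0.

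Genes with the most similar pattern were found by the Pearson correlation of log2(TPM + 1) over all 15 libraries, among 8863 genes of at least 5 TPM on average. The libraries share their groups, so these values only describe likeness. Cd80 was most like Rtn4 (r = 0.94), which averaged 294.1 TPM in PLX5622, 485.4 in AF-high, 515.1 in AF-low and 337.8 in young, followed by Filip1l (0.94) and Trib1 (0.92). Cd86 was most like Fbrsl1 (0.87), Cacna1a (0.87) and Ubxn4 (0.86), and Vsir most like Tmem86a (0.93), Rgs10 (0.91) and Tmub2 (0.90). Havcr2 was closest to Ints8 (0.86), Rab8a (0.85) and Olfr1033 (0.84), and Lag3 to Fscn1 (0.84), Vegfb (0.82) and Syk (0.82). Pvrig was closest to Slc7a15 (0.86), which shared its low AF-low level, at 7.44 TPM in PLX5622, 8.46 in AF-high, 3.632 in AF-low and 7.334 in young, then to Ndufaf5 (0.81) and Ddrgk1 (0.81). Lilrb4a was closest to Lilr4b (0.92), with which it shares sequence, then to Itgax (0.90) and Rab7b (0.90). Itgax, the CD11c gene, was at 10.64 TPM in PLX5622, 8.466 in AF-high, 13.66 in AF-low and 2.901 in young.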

How the data were processed

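Per the labels' protocols, RNA of sorted microglia was kept in RNAprotect, extracted with RNeasy columns, and amplified to cDNA with the Ovation system before low-input library preparation. The authors deposited 1 table of TPM values per gene symbol and library, and named it as filtered. Per the submitters' processing notes, FastQC 0.11.8, Salmon 1.0.0 and DESeq2 were used with GRCm38 (mm10). The sources used here do not give the filter, the annotation or any use of strand. TPM keeps no read depth, so no counting error was computed. The table had 0 values equal to 0, 0 identical pairs of libraries and 19 symbols turned into dates.

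Each column was matched to a library by the short name in the labels. Genes with at least 1 TPM in at least 3 libraries were tested on log2(TPM + 1), a pseudocount of 1, with limma 3.58.1 in R 4.3.3 (moderated test with a mean trend, two-sided, all 15 libraries in 1 fit, 11 residual degrees of freedom, Benjamini-Hochberg over all genes tested, threshold 0.05). The test was checked on simulated data. Each of the 6 comparisons is the first-named group minus the second. The members, the gene lists and the alternatives were chosen with earlier results of these data known. The text names all 7 members, the 4 genes of highest mean TPM in each non-marker list, every listed gene with an adjusted p under 0.05, and the 3 genes most correlated with each member. As genes of like pattern, Gm and Rik models, pseudogenes, and mitochondrial and ribosomal protein genes were passed over. Of the marker lists, sums and called genes are given, with other genes named where they bear on a sum. Pdcd1, Cd274, H2-Aa, H2-Ab1 and Bag6 are named outside these rules, to describe what the lists hold.

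Alternatives were a pseudocount of 0.1, no filter, a filter at 5 TPM, quantile normalization, a fit of only the compared groups, array weights, a replicate block, leaving out each library, leaving out young 1 and 2, and leaving out AF-high 2, AF-high 3 and AF-low 1. Summing the Lilrb4a copies was added after the data were seen. Loci came from GENCODE M21 and promoters from RefSeq. Coding sequences were aligned with Biopython 1.88, and plots were drawn with matplotlib 3.10.9 in Python 3.11.15.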

Additional observations from a re-analysis of the deposited data

Results flagged for a closer look

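Havcr2 in PLX5622 3, at 238.6 TPM, lay apart from the other 3 PLX5622 libraries, which had 259.7, 262.9 and 263.9 TPM. The gap to the nearest of them was 0.833 of the range of the group. It was the 1 of 14 groups of 4 or 5 libraries examined over the 7 genes in which a library stood apart, and chance gives about 1 in 20 such groups. This library was also the lowest of the group for Pvrig (5.339 TPM), Lag3 (61.91 TPM), Vsir (165.8 TPM), Cd86 (296.5 TPM) and Lilrb4a (165.5 TPM).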

How the results depend on the processing

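Depth is unknown for TPM, and groups hold 3 to 5 libraries. The fall of Cd80 in PLX5622 kept its direction in all 24 alternatives and its call in 16 of 24 relative to AF-high and in 9 of 24 relative to AF-low. Quantile normalization called 1, 11, 4 and 22 genes in AF-high versus young, AF-low versus young, PLX5622 versus AF-low and PLX5622 versus young, with 0 members in PLX5622 versus AF-low and 1 (Lilrb4a) in PLX5622 versus young. It turned Havcr2 in AF-low versus young (-0.055), PLX5622 versus AF-low (0.072) and PLX5622 versus young (0.017), Cd86 in PLX5622 versus AF-high (0.058) and Lag3 in PLX5622 versus AF-low (0.042). With only the compared groups fitted, 0, 7, 0 and 59 genes and 0, 0, 0 and 1 members were called in AF-low versus young, PLX5622 versus AF-high, PLX5622 versus AF-low and PLX5622 versus young, with fewer libraries to estimate the spread. Array weights called 129, 44, 441, 89 and 420 genes in the comparisons other than AF-high versus AF-low, and put Lilrb4a at -0.0065 in PLX5622 versus AF-high. Of differences not known beforehand, they newly called Lilrb4a against young in AF-high and PLX5622 (limma, adjusted p = 0.0241 and 0.00141). They also called Cd80 in AF-low versus young (0.0374). Differences of both genes from the same young libraries were known when the genes were chosen. Same-numbered libraries did not deviate together (correlations -0.0812 to 0.141, and 0 of 3 AF-low libraries correlated best with their own number). A replicate block called 0, 0, 3 and 3 genes in AF-low versus young, PLX5622 versus AF-high, PLX5622 versus AF-low and PLX5622 versus young, and 0 members in each, with Cd80 at adjusted p = 0.111 against AF-high and 0.183 against AF-low.

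With young 1 and 2 left aside, which assumes that the remaining young library varies as the others do, 0, 3, 3 and 0 genes were called in AF-low versus young, PLX5622 versus AF-high, PLX5622 versus AF-low and PLX5622 versus young, with 0 members in each, and Cd86 turned in AF-high versus young (-0.018) and PLX5622 versus young (-0.059). Without the libraries AF-high 2, AF-high 3 and AF-low 1 together, 1, 286, 45 and 30 genes and 0, 1, 0 and 1 members were called in the same order, and Cd86 (0.033) and Lilrb4a (-0.061) turned in PLX5622 versus AF-high. The cause of these shifts was not tested. Leaving out 1 library at a time, the genes called ranged over 0 to 1 and 0 to 60 (AF-high versus AF-low and young), 0 to 182 (AF-low versus young), and 1 to 205, 2 to 398 and 1 to 53 (PLX5622 versus AF-high, AF-low and young). Members called ranged over 0 to 0, 0 to 0, 0 to 2, 0 to 1, 0 to 2 and 0 to 0 in that order. Counts of members in comparisons among AF-high, AF-low and young cover the differences given without a test, so they are a description. Close to 0, Cd86 and Lilrb4a (PLX5622 versus AF-high), Vsir and Cd80 (AF-high versus AF-low), and Havcr2 and Lag3 (AF-low versus young) also changed sign, over -0.10 to 0.010, -0.022 to 0.11, -0.057 to 0.25, -0.37 to 0.031, -0.032 to 0.18 and -0.11 to 0.078.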

Other observations

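Other cell types that a sort of brain macrophages could hold were read from their markers as well. Summed dendritic cell markers, with 9 of 12 in the table, were at 898 to 1023 TPM in PLX5622, 1004 to 1175 in AF-high libraries, 732.3 to 979 in AF-low libraries and 1011 to 1112 in young. Most of that sum was Siglech, which is also among the microglia markers, at a mean of 840.4 TPM in PLX5622, 981.5 in AF-high, 761.3 in AF-low and 990 in young, while Flt3 and Xcr1 averaged 1.294 and 5.315 TPM in PLX5622. Of these markers Cd209a fell to 1.415 ± 0.8645 TPM in PLX5622, against 7.85 ± 2.65 in AF-high (adjusted p = 0.0289, limma), and kept that call in 10 of 15 fits without 1 library (adjusted p up to 0.117). Summed monocyte markers, 7 of 12, were at 181.6 to 228.1 TPM in PLX5622, 186.4 to 293.9 in AF-high libraries, 321.1 to 335.4 in AF-low libraries and 170.7 to 275.3 in young. Most of that sum was Nr4a1, also an immediate early gene, at a mean of 148.4, 205.2, 264.6 and 169.6 TPM in PLX5622, AF-high, AF-low and young. Between AF-low and young 4 of the 7 lay below 0, with a median of -0.02, and limma called 0. An unadjusted p under 0.05 was found for 2 of the 7, and for 11.8% of all genes. Among border-associated macrophage markers, Cd163 and F13a1 fell in PLX5622 relative to AF-low, at 1.265 ± 0.8256 against 6.549 ± 0.5667 TPM (adjusted p = 0.02) and at 4.541 ± 0.8261 against 13.61 ± 4.716 TPM (adjusted p = 0.047). Without 1 library, Cd163 kept its call in 12 of 15 fits (adjusted p up to 0.12) and F13a1 in 4 of 15 (up to 0.218), and with only the compared groups fitted neither was called (0.0789 and 0.0856).

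Summed B cell markers, 6 of 10, were at 252.3 to 312.3 TPM in PLX5622, 301.9 to 394.5 in AF-high libraries, 311.8 to 393.9 in AF-low libraries and 318.2 to 357.5 in young. Most of that sum was Ighm, at a mean of 161.9, 212.5, 219.5 and 207.4 TPM in PLX5622, AF-high, AF-low and young. Summed neutrophil markers, 3 of 12, were at 238.4 to 280.1, 219.2 to 373.1, 232.1 to 335.1 and 250.4 to 281.5 TPM in PLX5622, AF-high, AF-low and young. Nearly all of that sum was Csf3r, at a mean of 261.8 TPM over all libraries, against 18.47 for Cxcr2 and 1.315 for Mpo. Summed astrocyte markers, 8 of 11, were at 428.1 to 579.4 TPM in PLX5622, 510.8 to 741.9 in AF-high libraries, 621.8 to 681.3 in AF-low libraries and 579.6 to 815.1 in young.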
